A study of Mus musculus with 6 samples.

Results

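The SET1/MLL methyltransferases are the enzymes that add methyl groups to lysine 4 of histone H3 at promoters and enhancers. Their catalytic subunits are Kmt2a, Kmt2b, Kmt2c, Kmt2d, Setd1a and Setd1b. Each works only weakly until it is bound by a shared core of Wdr5, Rbbp5, Ash2l and Dpy30, known from its initials as WRAD. Setd1a and Setd1b are known for bulk trimethylation at active promoters, Kmt2a and Kmt2b for selected promoters such as those of developmental genes, and Kmt2c and Kmt2d for monomethylation at enhancers. In muscle cells the Ash2l-containing complex is known to be brought to muscle genes by Mef2d, and to Myf5 by Pax7. The 10 genes were taken by symbol from a table of 55356 genes, as 6 catalytic and 4 core members, and all 10 passed the minimum of 10 normalized counts in at least 3 libraries.

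The samples were C2C12 myotubes, fused cells formed in culture by a mouse myoblast line, and the study asked how sorafenib, an inhibitor of several protein kinases, alters their gene expression. The sorafenib group was 3 cultures given 20 µM of the drug for 24 h, and the DMSO group was 3 cultures given 0.1% DMSO, the solvent, for the same time. Both groups are the same cell line and no allele was altered in either, as far as the labels say. The series calls the replicates independent experiments, poly(A) RNA was sequenced from stranded libraries, and the values are the authors' DESeq2-normalized counts.

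Normalized totals were 70.2 to 70.6 M in sorafenib libraries and 78.0 to 78.9 M in DMSO libraries, and the size of the smallest values gave an estimated depth of 76.4 to 77.4 M reads in sorafenib and 65.5 to 80.2 M in DMSO. Because the totals differ between the groups, the change of each of the 10 genes is also given after scaling all libraries to equal totals, which shifted the all-gene median of the log2 changes by 0.16. The 10 myotube markers were all lower in sorafenib, with a summed level of 558287 to 672280 normalized counts in sorafenib libraries and 2065830 to 2226670 in DMSO libraries. Of 8 markers of dividing myoblasts, 1 was higher (Myf5) and 6 were lower, and their sums were 27807 to 28667 in sorafenib and 19995 to 25118 in DMSO. Without Myf5 the other 7 summed to 10198 to 10955 in sorafenib and 19114 to 24165 in DMSO. Over all genes tested, 38.8% were called higher and 37.8% lower (limma adjusted p below 0.05). Many markers of other cell types stayed under the minimum. The 1 adipocyte marker tested of 6 was higher, and the list summed to 2118 to 3021 normalized counts in sorafenib and 136 to 152 in DMSO. Nearly all of each sum was the marker tested, Lpl, with means of 2447 in sorafenib and 142 in DMSO. Of 4 osteoblast markers tested of 6, 1 was higher and 3 were lower, with sums of 3355 to 4452 in sorafenib and 2838 to 3548 in DMSO. Runx2, the higher one, made up most of each sum, with means of 3877 in sorafenib and 2913 in DMSO. Of 2 leukocyte markers tested of 7, 1 was higher and 1 lower, with sums of 381 to 459 in sorafenib and 108 to 117 in DMSO. Cd68, the higher one, had means of 386 in sorafenib and 45.5 in DMSO, and Itgam 17.1 in sorafenib and 61.0 in DMSO. Of 3 endothelial markers tested of 6, 2 were lower, with sums of 95.8 to 130 in sorafenib and 126 to 172 in DMSO; leaving out 1 library at a time gave 0 to 2 lower and 0 to 1 higher, with 0 lower without DMSO library 3 and 1 higher without DMSO library 2. Ibsp of the osteoblast list and Adgre1 of the leukocyte list were at 0 in all 6 libraries. In bulk RNA, fewer cells of a type and less RNA per cell cannot be told apart, and the part of these shifts in the changes given below was not tested.

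The promoters of Kmt2a, Setd1a, Wdr5 and Rbbp5 are shown first, because these 4 genes had the largest increases in sorafenib. Each sequence runs 5′ to 3′ in the direction of the gene, from 250 bases before the start of the transcript to 50 after it, and comes from RefSeq on GRCm38.p6. For Setd1a the whole sequence lies inside the gene span given below, which begins at chr7:127776670. Its values are therefore those of an internal transcript start. Capitals mark the motifs found among those searched on both strands, which in these 4 genes were the GC box GGGCGG, also where it reads as its reverse complement, and the E-box CAGCTG.
Kmt2a (chr9:44881240-44881539, minus strand): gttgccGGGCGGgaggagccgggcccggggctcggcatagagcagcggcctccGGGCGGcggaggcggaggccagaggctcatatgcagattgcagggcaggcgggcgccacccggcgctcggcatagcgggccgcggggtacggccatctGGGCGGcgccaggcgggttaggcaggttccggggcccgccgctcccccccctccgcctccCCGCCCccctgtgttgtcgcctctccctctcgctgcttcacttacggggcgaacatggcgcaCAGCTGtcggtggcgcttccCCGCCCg
Setd1a (chr7:127777139-127777438, plus strand): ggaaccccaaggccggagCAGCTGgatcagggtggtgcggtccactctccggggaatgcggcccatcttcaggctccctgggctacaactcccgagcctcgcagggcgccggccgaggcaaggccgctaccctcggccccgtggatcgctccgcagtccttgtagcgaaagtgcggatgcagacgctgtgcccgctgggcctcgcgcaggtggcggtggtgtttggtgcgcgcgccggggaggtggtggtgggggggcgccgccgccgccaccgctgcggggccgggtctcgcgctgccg
Wdr5 (chr2:27514897-27515196, plus strand): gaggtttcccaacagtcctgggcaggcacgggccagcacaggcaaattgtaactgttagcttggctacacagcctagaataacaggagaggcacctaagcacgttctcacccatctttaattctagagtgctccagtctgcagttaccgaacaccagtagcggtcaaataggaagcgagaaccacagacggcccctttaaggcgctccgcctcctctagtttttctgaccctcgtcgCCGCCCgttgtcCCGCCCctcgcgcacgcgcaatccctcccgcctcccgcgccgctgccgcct
Rbbp5 (chr1:132477117-132477416, plus strand): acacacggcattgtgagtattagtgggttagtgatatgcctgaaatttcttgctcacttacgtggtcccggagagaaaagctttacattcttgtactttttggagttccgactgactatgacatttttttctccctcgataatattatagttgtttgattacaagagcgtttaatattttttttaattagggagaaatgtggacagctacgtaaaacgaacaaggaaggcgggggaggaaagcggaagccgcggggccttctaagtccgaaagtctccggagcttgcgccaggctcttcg

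The 4 promoters held more CpG than most, with 36 in Kmt2a, 35 in Setd1a, 22 in Wdr5 and 16 in Rbbp5, against a median of 7 over 32851 RefSeq promoters of the same length. The GC content was 75.7% in Kmt2a, 73.7% in Setd1a, 59.0% in Wdr5 and 44.0% in Rbbp5, against a median of 52.7%. The GC box occurred 5 times in Kmt2a and 2 times in Wdr5, and 35.7% of all promoters hold at least 1. The E-box CAGCTG occurred 1 time in Kmt2a and 1 time in Setd1a, and 16.3% of all promoters hold it. Rbbp5 had no match to any searched motif, which also included the ETS motif CCGGAAG (8.86% of all promoters), CCAAT (37.4%), TATAAA (13.6%), the NRF1 motif (0.971%), the cyclic AMP response element TGACGTCA (1.79%) and the amino acid response element TGATGNAA (3.97%). No motif searched was therefore shared by all 4 genes. The promoter of Kmt2c, which did not pass the test, had the most CpG among the 7 of 10 members matched to RefSeq, with 56, and 12 GC boxes. The promoter of Kmt2d had 27 CpG and 4 GC boxes. Dpy30 had 4 annotated promoters, 1 of which held a CCAAT box and another a GC box. Kmt2b, Setd1b and Ash2l were not matched.

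With the deposited scaling, 7 of the 10 genes rose in sorafenib, Ash2l fell, and Kmt2c and Setd1b did not pass the test. All calls are limma adjusted p below 0.05, with Benjamini-Hochberg adjustment over all genes tested. These were 16645 genes with the deposited scaling and 16617 with equal totals. Log2 changes are on the scale log2(normalized count + 1). Sorafenib altered most of the transcriptome at this threshold: 76.6% of all genes tested were called, 38.8% higher and 37.8% lower. The share of members called, 80%, was near this background, while 7 of 10 were called higher. Over the 8981 genes with a mean of at least 1000 normalized counts, a level all 10 members exceed, 84.9% were called, 45.9% higher and 38.9% lower; this level was chosen after the values were seen. No member changed 2-fold, whereas 29.8% of all genes tested were called with a change of at least 2-fold. The median log2 change was 0.32 over the 10 members, 0.25 over the 6 catalytic and 0.41 over the 4 core genes, against 0.02 over all genes tested. The sorafenib and DMSO libraries did not overlap for 9 of the 10 genes, 8 higher and 1 lower, where 79.5% of all genes tested did not overlap, 40.1% higher and 39.4% lower. With equal totals, 9 of 10 rose and none fell, the member median was 0.47 and the median of all genes 0.17, and 78.3% of all genes were called, 46.6% higher and 31.7% lower. On that scale 9 members did not overlap, all of them higher, where 81.1% of all genes did not overlap, 48.1% higher and 33% lower. With quantile normalization the member counts were again 7 higher and 1 lower.

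**Figure D1:**
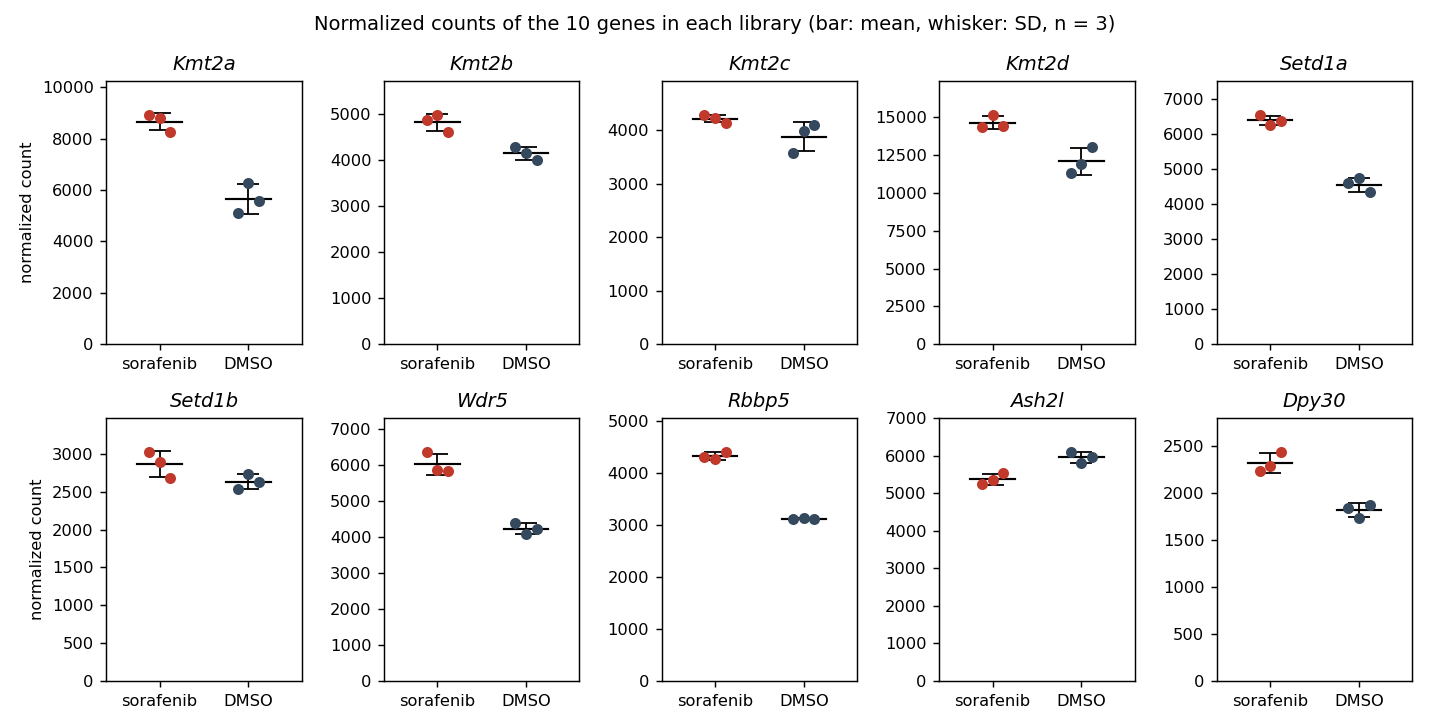
Normalized counts of the 10 genes in each of the 6 libraries, with a point per library, sorafenib left of DMSO in each panel, a bar at each group mean and whiskers for the SD. The groups are apart, with sorafenib higher, for 8 genes; for Ash2l they are apart with sorafenib lower, and for Setd1b they overlap.

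Kmt2a, the gene rearranged in mixed lineage leukaemia, showed the largest change of the 10. It had 8907, 8807 and 8272 normalized counts in sorafenib libraries 1 to 3, against 5089, 6277 and 5574 in DMSO libraries 1 to 3. Every sorafenib library was above every DMSO library, and the DMSO libraries varied more among themselves than those of any other member, with a coefficient of variation of 10.6%. The mean was 8662 ± 341 in sorafenib and 5646 ± 598 in DMSO (SD, n = 3 each), 1.53-fold, a log2 change of 0.62 ± 0.07 (SE; adjusted p = 5.88e-05). With equal totals the log2 change was 0.78 (adjusted p = 1.51e-05). Kmt2a lies on GRCm38 at chr9:44803355-44881296, minus strand, and its exons cover 16.67 kb.

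Setd1a, a main source of promoter trimethylation, rose almost as much. It had 6530, 6261 and 6364 normalized counts in sorafenib libraries, against 4594, 4733 and 4333 in DMSO libraries, and the groups were far apart. The means were 6385 ± 136 in sorafenib and 4553 ± 203 in DMSO (SD, n = 3 each), 1.40-fold, a log2 change of 0.49 ± 0.04 (SE; adjusted p = 5.39e-06). With equal totals the log2 change was 0.64. Setd1a lies at chr7:127776670-127800122 on the plus strand. It shares exon sequence on that strand with the predicted gene Gm49388, so reads could be split between them. Gm49388 had 560, 414 and 390 normalized counts in sorafenib libraries and 130, 0 and 0 in DMSO libraries, on average 4.55% of the level of Setd1a. The sum of both genes was 6839 ± 220 in sorafenib and 4597 ± 228 in DMSO, a log2 difference of 0.57, larger than that of Setd1a alone.

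Setd1b, the close relative of Setd1a, did not pass the test. It had 3026, 2897 and 2686 normalized counts in sorafenib libraries, against 2533, 2735 and 2633 in DMSO libraries, so that 1 sorafenib library lay within the DMSO range. The means were 2870 ± 172 in sorafenib and 2634 ± 101 in DMSO (SD, n = 3 each), a log2 change of 0.12 ± 0.05 (SE; adjusted p = 0.0667). Without sorafenib library 3 the log2 change was 0.17 (adjusted p = 0.0213). With equal totals the groups came apart and the log2 change was 0.28 (adjusted p = 0.00129). Setd1b lies at chr5:123142193-123168629, plus strand.

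Kmt2d and Kmt2b rose by smaller amounts. Kmt2d, an enhancer methyltransferase mutated in Kabuki syndrome, had 14377, 15117 and 14410 normalized counts in sorafenib libraries, against 11291, 11929 and 13015 in DMSO libraries. The groups did not overlap, and the log2 change was 0.28 ± 0.05 (SE; adjusted p = 0.000954), 1.21-fold. Kmt2b, the nearest relative of Kmt2a, had 4874, 4977 and 4618 normalized counts in sorafenib libraries, against 4279, 4153 and 4013 in DMSO libraries. Its groups were also apart, and its log2 change was 0.22 ± 0.04 (SE; adjusted p = 0.00137), 1.16-fold. With equal totals the log2 changes were 0.43 for Kmt2d and 0.37 for Kmt2b (adjusted p = 4.27e-05 and 4.81e-05). Kmt2d lies at chr15:98831669-98871204 and Kmt2b at chr7:30568858-30588726, both on the minus strand.

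Kmt2c, the partner of Kmt2d in function at enhancers, had 4279, 4231 and 4142 normalized counts in sorafenib libraries, against 3575, 3981 and 4092 in DMSO libraries. The lowest sorafenib library was only just above the highest DMSO library. The means were 4217 ± 69.6 in sorafenib and 3883 ± 272 in DMSO (SD, n = 3 each), a log2 change of 0.12 ± 0.05 (SE; adjusted p = 0.0630), which did not pass. Without DMSO library 3, the highest of its group, it was 0.16 (adjusted p = 0.0308). With equal totals it was 0.28 (adjusted p = 0.001). The gene lies at chr5:25271798-25498783, minus strand, and has the longest exons of the 10, 20.29 kb.

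Of the core genes, Wdr5 showed the largest change. Its protein is a WD40-repeat propeller that anchors the catalytic subunit, and it also serves other chromatin complexes. It had 6349, 5850 and 5819 normalized counts in sorafenib libraries, against 4376, 4066 and 4217 in DMSO libraries, and the groups were well separated. The means were 6006 ± 297 in sorafenib and 4220 ± 155 in DMSO (SD, n = 3 each), 1.42-fold, a log2 change of 0.51 ± 0.05 (SE; adjusted p = 8.6e-06). With equal totals the log2 change was 0.66. Wdr5 lies at chr2:27515157-27536535, plus strand.

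Rbbp5, which with Ash2l contacts the catalytic domain and raises its activity, had the smallest spread among DMSO libraries of the 10. It had 4306, 4265 and 4405 normalized counts in sorafenib libraries, against 3114, 3132 and 3119 in DMSO libraries, where the coefficient of variation was 0.292%. The log2 change was 0.47 ± 0.03 (SE; adjusted p = 1.99e-06), 1.39-fold, and 0.63 with equal totals. Dpy30, a small protein that binds Ash2l, had 2229, 2284 and 2433 normalized counts in sorafenib libraries, against 1838, 1729 and 1874 in DMSO libraries. Its groups were apart as well, with a log2 change of 0.35 ± 0.05 (SE; adjusted p = 0.000239), 1.28-fold, and 0.51 with equal totals. Rbbp5 lies at chr1:132477365-132505659 on the plus strand and Dpy30 at chr17:74299474-74323944 on the minus strand.

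Ash2l stood apart from the other core genes. It had 5239, 5364 and 5527 normalized counts in sorafenib libraries, against 6098, 5793 and 5973 in DMSO libraries, so every sorafenib library was below every DMSO library. The means were 5377 ± 145 in sorafenib and 5955 ± 153 in DMSO (SD, n = 3 each). It fell by 0.15 ± 0.04 on the log2 scale (SE; adjusted p = 0.00572) with the deposited scaling and by 0.16 with quantile normalization, but with equal totals the groups overlapped and the log2 change was 0.01 (adjusted p = 0.849). As a share of its library's total, which equal totals measure, Ash2l RNA did not pass the test. Ash2l was below the other 9 members with the deposited scaling and with quantile normalization. Equal totals shift all members by nearly the same amount, so that scaling could not change their order. The gene lies at chr8:25815996-25847694, minus strand.

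**Figure D2:**
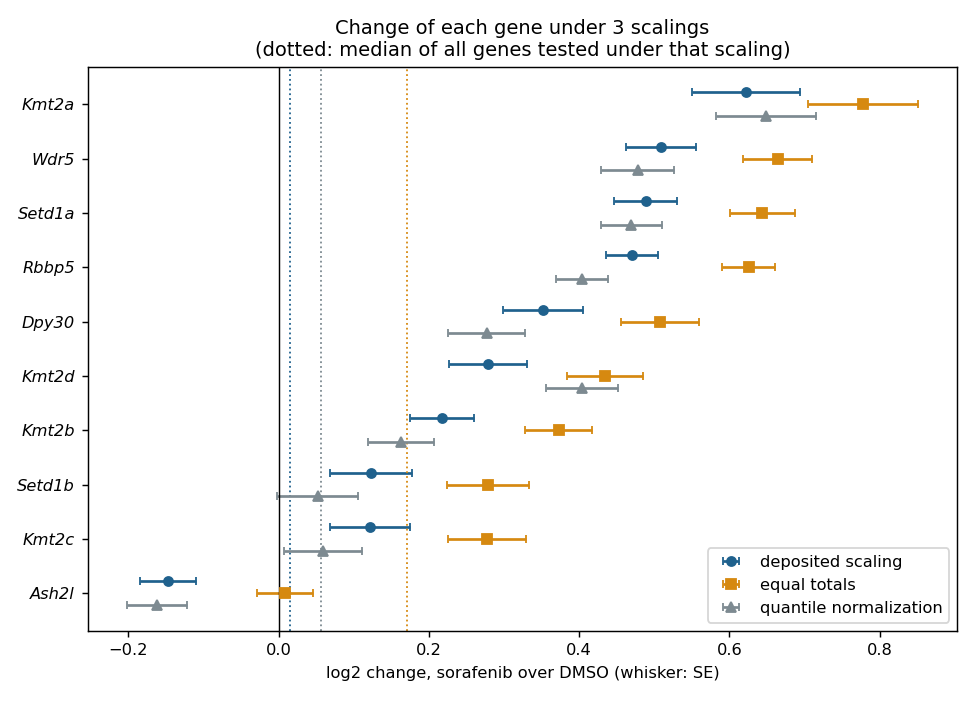
The log2 change of each gene, sorafenib over DMSO, with its standard error, under the deposited scaling, equal totals and quantile normalization; dotted lines are the medians of all genes. Kmt2a is highest under all 3 scalings, and Ash2l is lowest, at -0.15, 0.01 and -0.16. Equal totals shift all members nearly alike, so their order there had to be that of the deposited scaling.

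The authors' deposited table called the same 8 members, with the same signs. Its log2 fold changes ran from -0.15 for Ash2l to 0.62 for Kmt2a and differed from those given here by at most 0.0055. Of the 29160 genes above 0 in that source, 42.3% had an adjusted p below 0.05. Those genes include many under the minimum used here, so this share is not a like background for the members. Over the 16645 genes tested here the share called was 76.6%. Ranked by the size of the log2 change among all genes tested, the members lay between the 12.2 percentile (Kmt2c) and the 52.7 percentile (Kmt2a), so their changes were small or middling in this comparison.

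Ratios within a library do not depend on how libraries are scaled, so each member was also set against Wdr5 from the same library. Relative to Wdr5, Ash2l was 0.825, 0.917 and 0.950 in sorafenib libraries, against 1.39, 1.42 and 1.42 in DMSO libraries. Ash2l thus had more normalized counts than Wdr5 in each DMSO library and fewer in each sorafenib library. The log2 ratio was lower in sorafenib by 0.66 in size (-0.66), with an exact two-sided permutation p = 0.1, the smallest that 3 against 3 libraries allow, and 0.18 after adjustment over the 9 ratios. Kmt2b (-0.29), Kmt2c (-0.39), Setd1b (-0.39) and Dpy30 (-0.16) were also lower relative to Wdr5 in every sorafenib library, with the same exact p = 0.1 and adjusted p = 0.18. For Dpy30 the gap between the groups was narrow, and the difference was -0.089 without sorafenib library 1. Setd1a (-0.02), Rbbp5 (-0.04), Kmt2a (0.11) and Kmt2d (-0.23) overlapped between the groups (exact permutation p = 0.9, 0.6, 0.5 and 0.2). That of Kmt2a was 0.014 without DMSO library 1 and 0.22 without DMSO library 2. In all, 5 of 9 ratios to Wdr5 were lower without overlap and none was higher, where 62.5% of all genes tested were lower and 18.2% higher. Set against Ash2l instead, all 9 other members were higher in every sorafenib library, where 47% of all genes were higher and 32.7% lower. The difference in a log2 ratio is the log2 change of the gene less that of its reference. Among the members only Kmt2a had a larger log2 change than Wdr5, and none had a lower one than Ash2l. The choice of reference therefore set the sign of these mean differences.

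**Figure D3:**
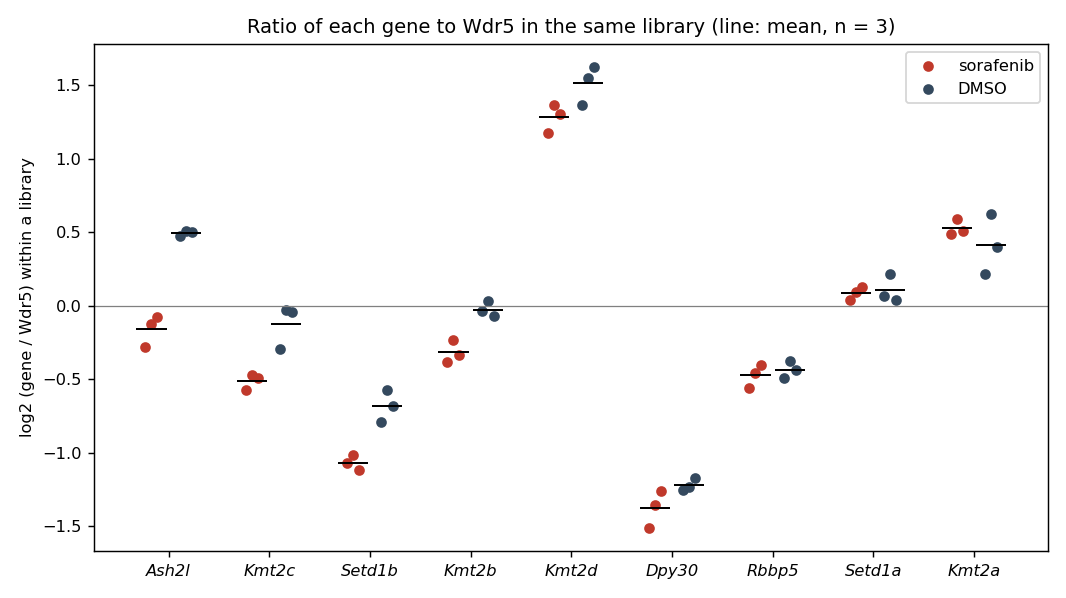
The log2 ratio of each of the other 9 genes to Wdr5 within each library, sorafenib left of DMSO. Ash2l shows the widest separation, with linear ratios of 0.825 to 0.950 in sorafenib and 1.39 to 1.42 in DMSO.

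Levels of different genes were compared per kilobase of exon. In sorafenib the order of mean levels was Dpy30 (2020), Wdr5 (1670), Rbbp5 (1101), Setd1a (940), Kmt2d (734), Ash2l (599), Kmt2a (520), Kmt2b (503), Setd1b (238) and Kmt2c (208 normalized counts per kb), and of neighbours in this order Kmt2a and Kmt2b overlapped. In DMSO it was Dpy30 (1583), Wdr5 (1173), Rbbp5 (794), Setd1a (670), Ash2l (664), Kmt2d (606), Kmt2b (432), Kmt2a (339), Setd1b (218) and Kmt2c (191 normalized counts per kb). There, Setd1a overlapped with Ash2l and Ash2l with Kmt2d. Kmt2a was thus below Kmt2b in every DMSO library and overlapped with it in sorafenib. The order depends on the length used. With the longest transcript of each gene, Kmt2a was below Kmt2b in sorafenib too, at 526 and 569 normalized counts per kb, and Ash2l came after Dpy30 and Wdr5 in sorafenib, at 1452, and after Dpy30 alone in DMSO, at 1609 normalized counts per kb.

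Summed per kb, the 6 catalytic genes reached 3186, 3175 and 3064 normalized counts per kb in sorafenib libraries, against 2380, 2527 and 2463 in DMSO libraries. The 4 core genes reached 5390, 5303 and 5478 in sorafenib libraries, against 4293, 4082 and 4267 in DMSO libraries. Both sums were higher in every sorafenib library, by 1.28-fold each. The core sum over the catalytic sum was 1.72 ± 0.06 in sorafenib and 1.72 ± 0.10 in DMSO (SD, n = 3 each), and the groups overlapped. Inside the catalytic sum, whose shares add to 100%, Kmt2a took 16.5 ± 0.30% in sorafenib and 13.8 ± 1.05% in DMSO, and Setd1a 29.9 ± 0.80% in sorafenib and 27.3 ± 1.28% in DMSO. The shares of Kmt2b (16.0% in sorafenib, 17.6% in DMSO), Kmt2c (6.62% in sorafenib, 7.78% in DMSO) and Setd1b (7.57% in sorafenib, 8.88% in DMSO) were lower in every sorafenib library. Those of Kmt2d overlapped (23.4% in sorafenib, 24.7% in DMSO). Inside the core sum, Ash2l took 11.1 ± 0.25% in sorafenib and 15.8 ± 0.13% in DMSO (18.8 ± 0.35% in sorafenib and 25.6 ± 0.21% in DMSO with the longest transcript), the widest separation of the 10 shares. Wdr5 took 31.0 ± 1.63% in sorafenib and 27.8 ± 0.45% in DMSO, and Rbbp5 20.4 ± 0.08% in sorafenib and 18.9 ± 0.58% in DMSO. Dpy30 took 37.5 ± 1.34% in sorafenib and 37.5 ± 0.70% in DMSO, with overlap.

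**Figure D4:**
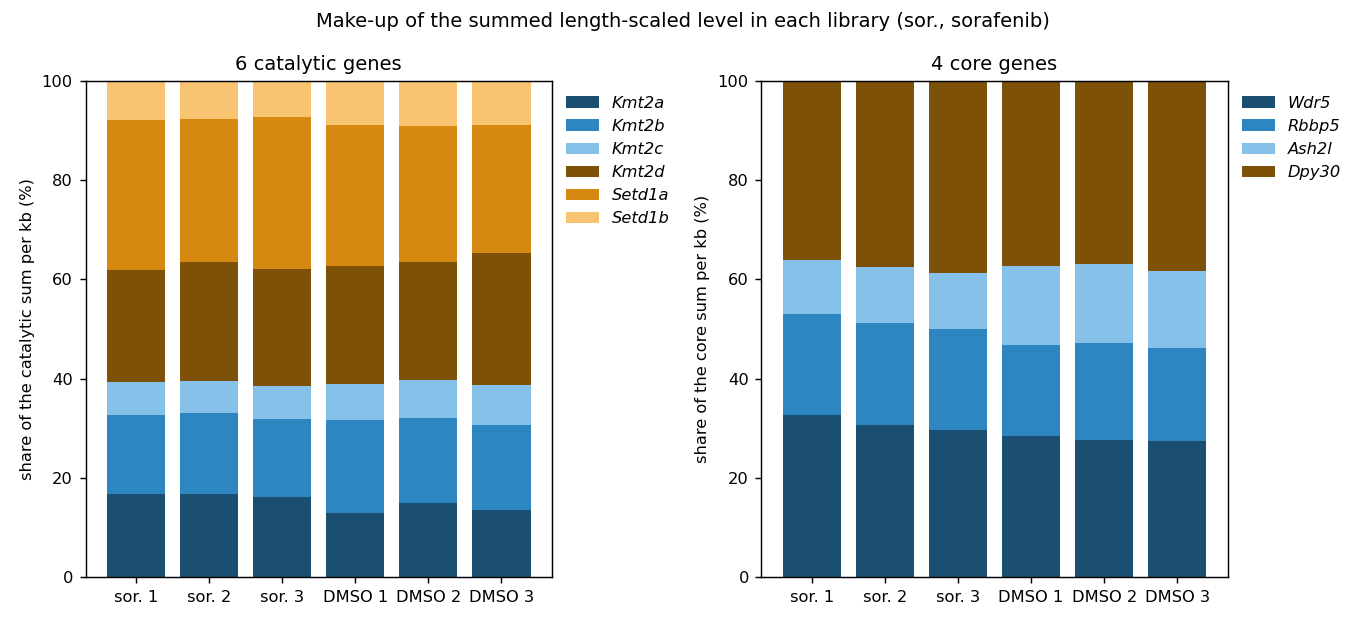
Share, in percent, that each gene takes of the summed level per kb of exon of the 6 catalytic genes (left) and the 4 core genes (right), as a stacked bar per library with sorafenib libraries left of DMSO libraries. The Ash2l segment is smaller in every sorafenib library, with a mean of 11.1% of the core sum in sorafenib and 15.8% in DMSO.

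Genes that work with the 10 were described from lists, by the count that passed the test. Each count is to be read beside the background of all genes tested, of which 76.6% were called, 38.8% higher and 37.8% lower, or 46.6% higher and 31.7% lower with equal totals. Of 12 accessory subunits, 6 rose, 3 fell and 3 did not pass, with a median log2 change of 0.14; with equal totals 7 rose and 2 fell. The share called, 75%, was near that background. Wdr82, which links Setd1a and Setd1b to RNA polymerase II, rose to 6234 ± 176 normalized counts in sorafenib, against 4254 ± 115 in DMSO (log2 change 0.55 ± 0.04, adjusted p = 1.29e-06). Cxxc1, which binds unmethylated CpG and joins the same pair of enzymes, rose by 0.50 on the log2 scale, and Paxip1 and Kdm6a, found in the Kmt2c and Kmt2d complexes, by 0.54 and 0.35. Bod1 fell to 4508 ± 242 normalized counts in sorafenib, against 6987 ± 301 in DMSO (log2 change -0.63 ± 0.05, adjusted p = 3.03e-06). Hcfc1, a host cell factor that binds several of the complexes, fell by 0.16 on the log2 scale with the deposited scaling and did not pass with equal totals (-0.0025, adjusted p = 0.955) or with quantile normalization (-0.04, adjusted p = 0.354). Psip1 had a log2 change of -0.33 (limma adjusted p = 0.000153), and of -0.18 with equal totals and -0.34 with quantile normalization, and passed under each. Cxxc1, Paxip1, Kdm6a, Hcfc1 and Psip1 were chosen after their values were seen.

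Among 7 other methyltransferases linked to H3K4, 1 rose, 3 fell and 3 did not pass (median log2 change -0.10), so that 57.1% were called, beside 76.6% of all genes. With equal totals 3 rose and 3 fell, and 2 rose with quantile normalization or without DMSO library 2. Smyd1, a methyltransferase of heart and skeletal muscle, had the largest fall, with 2926 ± 388 normalized counts in sorafenib and 13900 ± 757 in DMSO (log2 change -2.26 ± 0.10, adjusted p = 2.56e-07). Smyd2 rose, with 5766 ± 197 normalized counts in sorafenib and 3307 ± 59.1 in DMSO (log2 change 0.80 ± 0.04, adjusted p = 1.29e-07). The fall of Smyd1 goes with the markers of myotubes, all 10 of which fell, and the part of that shift in it was not tested.

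Of 16 methyltransferases of other histone lysines, 10 rose, 4 fell and 2 did not pass, with a median log2 change of 0.25, the same value as for the 6 catalytic members. The share called was 87.5%, beside 76.6% of all genes and 84.9% of genes with a mean of at least 1000. Suv39h2, which methylates heterochromatin, rose by 0.94 ± 0.10 on the log2 scale, and Dot1l, which methylates the histone core, fell by 0.87 ± 0.04 (adjusted p = 2.54e-05 and 1.21e-07). With equal totals 11 rose and 3 fell.

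Of 7 demethylases that act on H3K4, 6 could be tested, and 3 rose and 3 fell (median log2 change 0.03), beside 38.8% of all genes higher and 37.8% lower; Kdm5d did not reach the minimum. Kdm5a rose by 0.36 on the log2 scale (adjusted p = 0.000104) and Kdm1a, also known as LSD1, fell to 8304 ± 288 normalized counts in sorafenib, against 11896 ± 306 in DMSO (log2 change -0.52 ± 0.04, adjusted p = 1.78e-06). With equal totals 3 rose and 1 fell, since Kdm5b and Kdm5c no longer passed. Of the 8 genes of the NSL complex, an acetyltransferase complex that also holds Wdr5, 5 rose and 2 fell (median log2 change 0.25), 87.5% called. Its enzyme Kat8 rose by 0.62 ± 0.05 and Mcrs1 fell by 0.42 ± 0.06 on the log2 scale; with equal totals Mcrs1 was at -0.26. With equal totals 6 rose and 1 fell. Hcfc1 is in this list and among the accessory subunits, and is counted as fallen in both with the deposited scaling. It did not pass with equal totals or with quantile normalization.

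A list of 8 genes held factors for the processing and muscle recruitment of SET1/MLL proteins, and the target genes Myf5, Myog and Ckm. Myog and Ckm are also among the myotube markers, and Pax7 and Myf5 among those of dividing myoblasts. Of the 8, 3 rose and 5 fell, with a median log2 change of -0.51, beside 38.8% of all genes higher and 37.8% lower. With equal totals 3 rose and 4 fell. Tasp1, the protease that cleaves Kmt2a and Kmt2b proteins, rose to 1364 ± 5.17 normalized counts in sorafenib, against 729 ± 35.8 in DMSO (log2 change 0.90 ± 0.06, adjusted p = 7.68e-07). Mef2d, which brings Ash2l to muscle genes, fell to 15669 ± 269 in sorafenib, against 28746 ± 309 in DMSO (log2 change -0.88 ± 0.03). Pax7 fell by 1.03 on the log2 scale, and Mapk14, the p38 kinase that acts on Mef2d, rose by 0.26, or by 0.42 with equal totals. Of the genes these factors act on, Ckm, a muscle creatine kinase, fell (log2 change -1.90 ± 0.07), as did Myog (log2 change -1.78 ± 0.08). Myf5 rose to 17590 ± 132 normalized counts in sorafenib, against 933 ± 45.2 in DMSO (log2 change 4.24 ± 0.04, adjusted p = 8.83e-11). Carm1, which methylates Pax7 protein, fell by 0.15 with the deposited scaling and did not pass with equal totals (0.01, adjusted p = 0.873). Tasp1, Mef2d, Pax7, Mapk14, Myog and Carm1 were chosen after their values were seen.

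**Figure D5:**
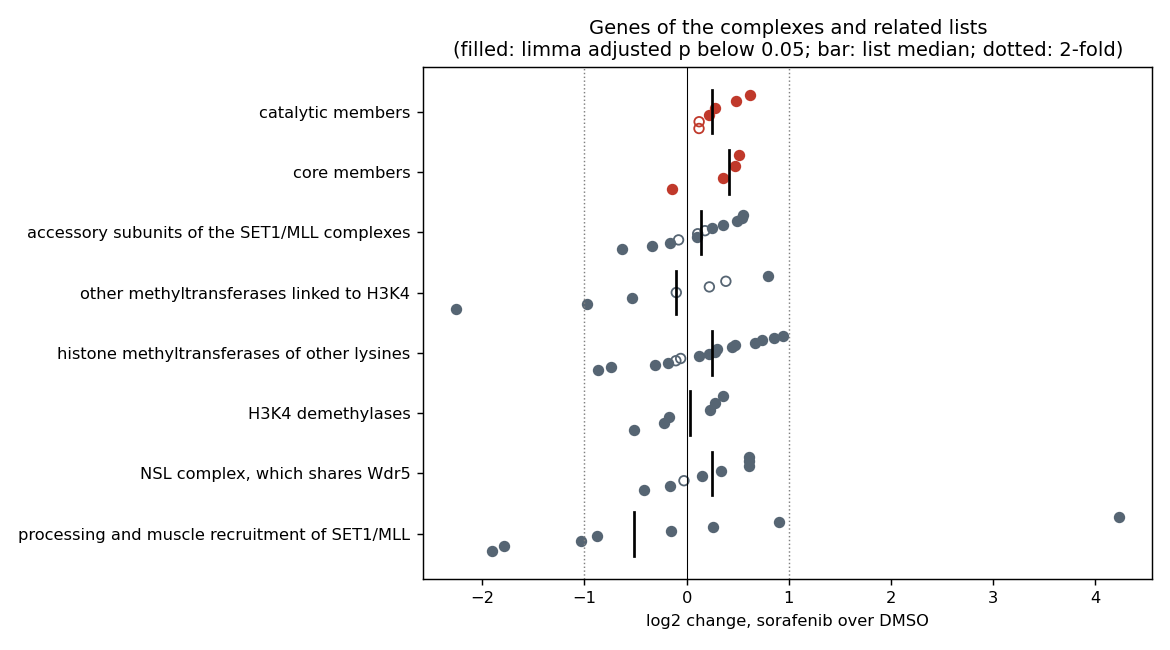
Log2 changes, sorafenib over DMSO, of the genes in each list, with a point per gene (filled where it passed the test, open where it did not) and a bar at each list's median. The medians run from -0.51 for processing and muscle recruitment to 0.41 for the core members, and the median of all genes tested was 0.02. The processing and muscle recruitment list also holds the target genes Myf5, Myog and Ckm.

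The genes whose pattern over the 6 libraries was most like that of Wdr5 were found by the root-mean-square difference between centred log2 profiles, over 11478 genes with a mean of at least 100. They were Gpaa1, a subunit of the enzyme that attaches lipid anchors to proteins (0.0156), Cars, a cysteinyl-tRNA synthetase (0.0159), and Ddx39b, an RNA helicase (0.0174), with log2 changes of 0.51, 0.49 and 0.51. Of the members, Rbbp5 (0.0601) and Setd1a (0.0622) were nearest to Wdr5 and Ash2l (0.334) was farthest, beside a median of 0.322 over the genes searched. The genes most like the mean of the 6 catalytic members were Ccdc50 (0.00585), Rfx7, a transcription factor (0.00728), and Trp53i13 (0.0148), with log2 changes of 0.30, 0.30 and 0.29, or 0.46, 0.46 and 0.45 with equal totals; the median over the genes searched was 0.280. Such a profile holds the difference between the groups as well as the spread within them.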

How the data were processed

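Poly(A) RNA of 3 sorafenib and 3 DMSO cultures was sequenced. Per the file headers, the deposited signal values per library are normalized counts, which the submitters' processing notes tie to DESeq2; these notes also name bcl2fastq and the build GRCm38.p6 without versions. For each gene the authors added a log2 fold change, a Wald score and p-values. The column names hold the words quant sf, but no source used here names the quantification tool or its use of strand. For none of 55356 genes did the mean of the 6 libraries exceed the deposited base mean by more than a relative tolerance of 1e-06. Means below the base mean were not looked for, so this check does not show that the values match it. Within 0.02, 66.8% to 74.1% of the low values in a library were a whole number of smallest steps, so whole reads were not recovered and no count model was run.

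Log2 of the normalized count plus 1 was tested with limma 3.58.1 (R 4.3.3; trend and robust options on) with group as the only term. Genes needed 10 normalized counts or more in 3 or more libraries. Adjustment was by Benjamini-Hochberg over 16645 genes, with a threshold of 0.05. The filter was applied anew in each alternative, so the number of genes tested could differ, and it was 16617 with equal totals. Ratios within a library had an exact permutation test. Gene positions come from GENCODE M21 on GRCm38 through the gene identifier, because those of the deposited file differ from that build. The test step was checked on simulated data in which few genes changed, by amounts larger than those of several members. That setting differs from these data, so the check does not gauge calls of changes as small as theirs. The members and lists were chosen with earlier results of these data known. The genes named by rule were the 10 members, the highest and lowest tested gene of each list, and the 3 genes most like Wdr5 and most like the catalytic mean. All others were chosen after their values were seen, also where the text does not say so beside them, as for Kdm5b and Kdm5c. Alternatives were quantile normalization, equal totals, no filter, a minimum of 50, pseudocounts of 0.1 and 10, limma without trend and robust options, the replicate number as a block, leaving out each of the 6 libraries, and the longest transcript as length. Equal totals combined with the block was chosen after seeing the data. Calculations used Python 3.11.15, pandas 2.3.3, numpy 2.4.6, scipy 1.17.1 and matplotlib 3.10.9.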

Additional observations from a re-analysis of the deposited data

How the results depend on the processing

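The calls and directions of Kmt2a, Kmt2b, Kmt2d, Setd1a, Wdr5, Rbbp5 and Dpy30 held under every alternative run. The other 3 moved with the scaling: with equal totals, without or with the replicate block, Kmt2c and Setd1b were called at 0.28 each and Ash2l was at 0.0081, so that 0 members were lower. Among all genes tested, 6453 were higher and 6297 lower with the deposited scaling, and 7740 higher and 5271 lower with equal totals. With equal totals the log2 difference of the catalytic sum was 0.51 and of the core sum 0.51; with the longest transcript the core sum was at 0.30. Leaving out each library in turn gave 5817 to 6341 genes higher and 5576 to 6168 lower, 7 to 8 members higher, and log2 changes of 0.063 to 0.16 for Kmt2c and 0.084 to 0.17 for Setd1b, where Kmt2c was called without DMSO library 3 and Setd1b without sorafenib library 3. The log2 ratio to Wdr5 then ran from -0.055 to 0.035 for Setd1a, changing sign without sorafenib library 1 and without DMSO library 2, and from -0.074 to 0.0054 for Rbbp5, changing sign without sorafenib library 1. It ran from 0.014 to 0.22 for Kmt2a and from -0.22 to -0.089 for Dpy30. The cause of these changes was not tested.

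With the replicate block, 6404 genes were higher and 6231 lower, and 7 members were higher and 1 lower. Deviations of libraries with the same number correlated at 0.077, 0.045 and 0.022, and those with different numbers at -0.069 to 0.025. By this measure 5 of 6 libraries correlated best with their own number. The labels do not say whether the numbers pair the samples, so the block was run as an alternative only. In the column names the library numbers run replicate by replicate, each DMSO library just before the sorafenib library of the same replicate number. The main test and the exact permutation test did not use a pairing. A weak pairing therefore remains possible. No call of a member changed with the block under the deposited scaling. Estimated depth was at least 65.5 M reads per library.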

Other observations

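Wdr5b, a close relative of Wdr5 at chr16:36041190-36043928 on GRCm38 that was chosen after its values were seen, had 293, 234 and 249 normalized counts in sorafenib libraries, against 486, 466 and 477 in DMSO libraries. The groups were apart, and limma gave a log2 change of -0.88 ± 0.10 (SE; adjusted p = 4.17e-05), or -0.73 with equal totals, while Wdr5 changed by 0.51 with the deposited scaling. The sources used here do not give how reads shared by the 2 genes were assigned, so their separation is uncertain.

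Among markers of other cell types, Lpl, an adipocyte marker, was at 2447 ± 496 normalized counts in sorafenib and 142 ± 8.33 in DMSO, and the leukocyte marker Cd68 at 386 ± 42.8 in sorafenib and 45.5 ± 6.62 in DMSO (SD, n = 3 each). Adipoq, Ptprc and Pecam1, from the adipocyte, leukocyte and endothelial lists, had means of 1.93, 0.61 and 5.88 normalized counts in sorafenib. Their means in DMSO were 0.65, 0.33 and 2.61. Other genes of the endothelial list differed: Kdr was at 8.74 in sorafenib and 2.87 in DMSO, and Vwf at 68.6 in sorafenib and 109 in DMSO. Adipoq, Ptprc, Pecam1, Kdr and Vwf were chosen after their values were seen. Runx2 of the osteoblast list was called at a log2 change of 0.41 (limma adjusted p = 0.0194), and not without DMSO library 1 (0.31), without sorafenib library 1 (0.31), with the replicate block (0.41, adjusted p = 0.0609) or with no filter on low values (0.41, adjusted p = 0.0641). In limma, log2 changes of the myotube markers ran from -2.26 (Myh8) to -1.47 (Acta1). The lowest log2 changes in the other marker lists were -1.53 for Mki67, -3.91 for Dmp1, -1.77 for Itgam and -1.69 for Cdh5, and Tek was at 0.96 and did not pass (adjusted p = 0.0813). Acta1 was at -0.97 with quantile normalization. Tek passed with the replicate block (0.96, adjusted p = 0.0393), with quantile normalization (1.16, adjusted p = 0.0426) and without DMSO library 2 (1.43, adjusted p = 0.0101), and was at 0.48 without DMSO library 3. The number of osteoblast markers called lower was 1 with a minimum of 50.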
